A study of Saccharomyces cerevisiae with 6 samples.

Results

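The genes of DNA replication and of ribonucleotide reduction in budding yeast form a set of 44 genes among the 5560 named genes measured in the series. They were chosen by function and matched by gene symbol in the probe annotation, with no cutoff on their values: the origin recognition complex, the MCM helicase and its loader, the kinase that fires origins, the replicative polymerases, the sliding clamp and its loader, replication protein A, the enzymes that finish Okazaki fragments, fork proteins, ribonucleotide reductase and thymidylate synthase. Each of the 44 genes had 1 probe. Of these, 38 had a value on all 4 rapamycin arrays and entered the tests, and ORC1, CDC6, POL3, DPB3, CTF4 and TOF1 did not, because a value was missing on 1 of those arrays.

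All samples were poly(A) RNA of wild-type Saccharomyces cerevisiae S288c, the reference laboratory strain. A pair of arrays set cells grown in MDN with rapamycin against untreated cells in MDN, and another pair set cells grown in YPD with rapamycin against untreated cells in YPD. A single array set MDN against YPD, and a single array set MDN against SCD. The labels do not spell out MDN or SCD, nor do they state rapamycin dose or exposure time. The question named by the series is which transcripts depend on TOR, the growth-controlling kinase that rapamycin inhibits, during growth in MDN.

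Every value below is a log2 ratio, so that 1 stands for a 2-fold higher signal in the first-named sample. The first-named sample carried Cy5 throughout and no dyes were swapped, and the direction of the ratio is likely rather than stated. A dye effect particular to a gene cannot be told apart from its response within a medium. Such an effect, where shared by both media, cancels in the difference between them. Below, rose and fell give the sign of a ratio against 0. The arrays held values for 5834 to 6121 probes, their medians lay between -0.09 and 0.07, and over all probes the replicate arrays correlated at r = 0.966 in MDN and 0.950 in YPD. Responses are limma means over 2 arrays per medium with their standard error (SE), and a gene was called where the Benjamini-Hochberg adjusted p over all 5488 features tested was under 0.05. The labels do not say that the arrays came from separate cultures, so the p-values measure the spread between arrays, which may be technical. The RNA was extracted from whole cultures, so fewer cells in S phase and less RNA per cell cannot be told apart.

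Replication begins where the origin recognition complex marks the DNA and Cdc6 helps to load the ring-shaped MCM helicase around it in G1. At the start of S phase the Cdc7-Dbf4 kinase and the S-phase cyclins turn the loaded rings into active helicases, and the polymerases, the sliding clamp PCNA and the single-strand binding protein RPA then assemble at the fork. Ribonucleotide reductase makes the deoxynucleotides. In budding yeast, transcripts of many of these genes peak late in G1 under the factor MBF, and the RNR genes are also raised by the replication and DNA damage checkpoint.

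In MDN, rapamycin left most of the replication genes uncalled and raised all 3 subunits of RPA together with RNR2 and RNR4. Of the 38 genes tested, 7 rose (CDC7, PRI2, RFA1, RFA2, RFA3, RNR2 and RNR4), 6 fell (ORC2, ORC5, MCM3, POL12, POL30 and CDC9) and 25 were not called. Over all features tested, 54.1% were called in MDN, 30.8% higher and 23.3% lower, so the set held fewer calls than the array at large. The median response of the 38 genes was 0.08, against 0.06 over all features. Both MDN arrays were above 0 for 17 of the 38 genes and below 0 for 15, where the shares over all features were 48.7% and 37.8%. Most of the MDN calls rested on both arrays: without MDN array 1 the set had 1 gene higher (RNR4) and 0 lower, when 9.12% of all features were called, and without MDN array 2 it had 3 higher (RNR2, RNR4 and RFA3) and 0 lower, when 10.7% were called. At an unadjusted p under 0.05, 2 and 5 genes were lower in these fits.

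In YPD, rapamycin lowered close to every second tested gene of the set, and the lowest of those tested were POL30, ORC2 and RNR1. Of the 38 genes, 18 fell, 5 rose (ORC4, POL31, RFA1, RNR2 and RNR4) and 15 were not called. The array-wide share of calls in YPD was 66.3%, with 34.3% higher and 32.0% lower, so the total share of calls in the set was not above the background, and its direction was mostly downward. The median of the 38 genes was -0.27, against 0.01 over all features. Both YPD arrays lay below 0 for 25 of the 38 genes and above 0 for 8, where the shares over all features were 43.1% and 44.4%. Leaving out YPD array 2 reduced the genes called lower to 10, and leaving out any other array reduced them to 12. The share of all features called in either direction also fell, to 43.4% without YPD array 1, 45.5% without YPD array 2, 51.7% without MDN array 1 and 51.4% without MDN array 2. Genes called higher numbered 2 without either YPD array and 3 without either MDN array. ORC2, MCM3, POL30, RFC4, RFC5, CDC9 and RNR1 remained called lower, and RNR4 called higher, whichever of the 4 arrays was left out.

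Set against each other, the responses were higher in MDN than in YPD for 11 genes (ORC2, DBF4, PRI2, POL30, RFC4, RFC5, RFA2, RFA3, RAD27, RNR1 and RNR4) and lower in MDN for ORC5, by the test of the difference in limma. Over all features 29.5% were called for this difference, 14.9% higher and 14.6% lower. The median difference, MDN minus YPD, was 0.33 in the set and 0.02 over all features, and 33 of the 38 genes had the higher mean in MDN. For 28 genes both MDN arrays lay above both YPD arrays and for 2 genes (ORC5 and POL31) below them, where the shares over all features were 36.4% and 32.6%. The difference calls needed all 4 arrays. With any 1 array left out, limma called 0 of the 38 genes and 0 of all features at an adjusted p under 0.05 (9 to 15 of the 38 were higher and 0 to 2 lower at an unadjusted p under 0.05), the adjusted p of the 12 genes lay between 0.0715 and 0.229, and every sign was kept. With the array number as a block, 7 of the genes were called higher in MDN and ORC2, ORC5, PRI2, RAD27 and RFC4 were no longer called.

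Some genes were called in the same direction in both media, though POL30, RNR4 and ORC2 among them differed in size by the test of the difference. No dyes were swapped, so a dye effect on such a gene cannot be told apart from a response in both media. RFA1, RNR2 and RNR4 were called higher in both (3 of 38, against 22.3% of all features) and ORC2, MCM3, POL12, POL30 and CDC9 were called lower in both (5 of 38, against 17.9%). RFA2 was called higher in MDN and lower in YPD, and 11 genes were called in neither. Across the 38 genes the MDN and YPD means correlated at r = 0.67, against 0.80 across all 5488 features; these points share probes and dye orientation, and genes are not independent replicates. The responses in the set were modest. Their SD across genes was 0.46 in MDN and 0.48 in YPD, against 0.99 and 1.12 over all features. A called change of at least 2-fold was found for RNR4 in MDN, for POL30, ORC2 and RNR1 in YPD, and for POL30 in the difference.

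**Figure D1:**
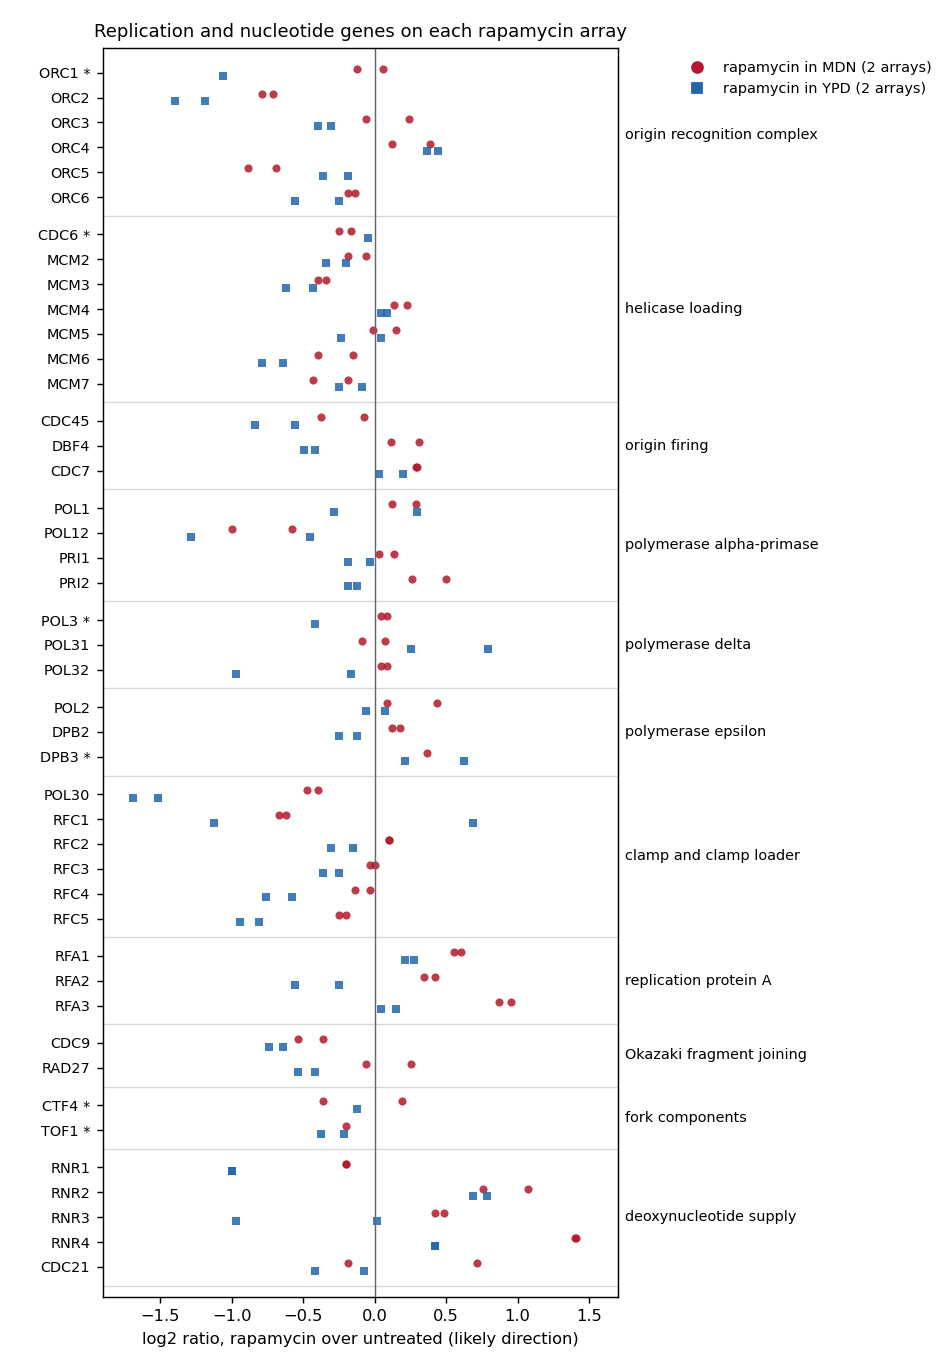
Log2 ratio of rapamycin-treated over untreated cells for each of the 44 genes on the 2 MDN and 2 YPD arrays, ordered by role, with 1 point per array; an asterisk marks the 6 genes left untested for a missing value. The RPA genes, RNR2 and RNR4 lie to the right of 0 in MDN. Among the tested genes, the means of POL30, ORC2 and RNR1 are the lowest in YPD (-1.60, -1.29 and -1.0).

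**Figure D2:**
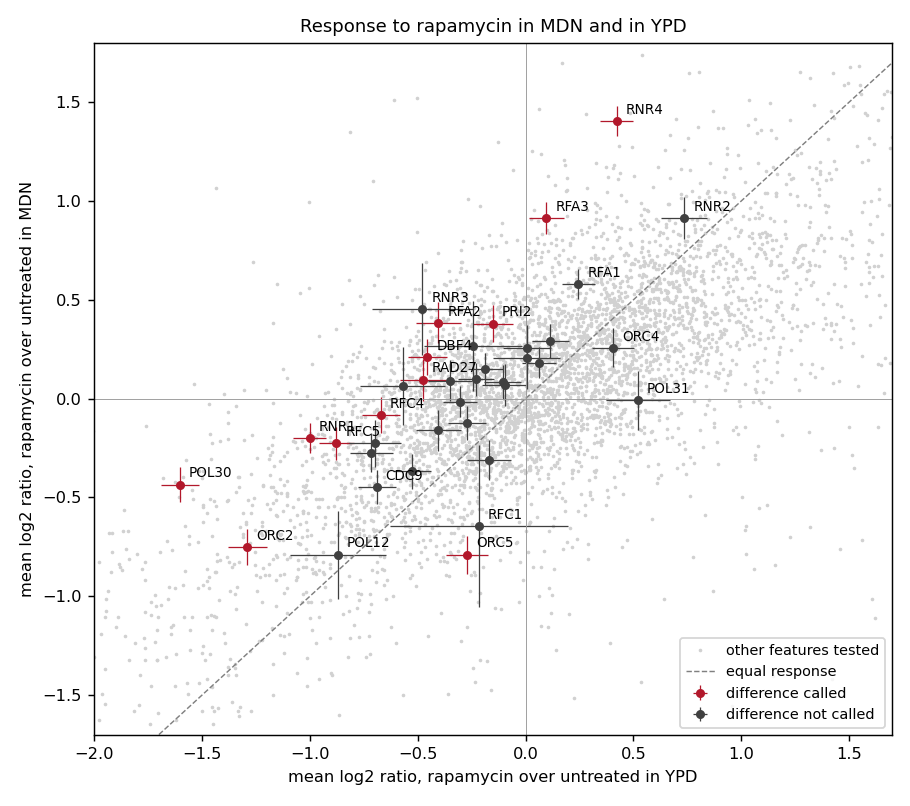
Mean log2 response to rapamycin in MDN (vertical axis) against YPD (horizontal axis) for the 38 genes tested, with standard errors; the other features tested are in grey, with the axes cut, and the dashed line marks an equal response. Of the 38 genes 33 lie above the line, and the 12 in red were called for the difference.

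The origin recognition complex stays on origins through the cell cycle. Its tested genes did not all have the same sign in either medium, and they were not tested against each other. Both arrays were below 0 for 4 of the 5 in YPD and 3 of the 5 in MDN, against 43.1% and 37.8% of all features. ORC2 had -0.79 and -0.71 on the MDN arrays, against -1.18 and -1.40 on the YPD arrays. All 4 values were low and the media did not overlap. The means were -0.75 ± 0.09 in MDN (SE, n = 2, limma adjusted p = 0.00243) and -1.29 ± 0.09 in YPD (n = 2, adjusted p = 0.00027), and the difference was 0.54 ± 0.13 (adjusted p = 0.0344). ORC5, an ATP-binding subunit, ran the other way, with -0.69 and -0.89 on the MDN arrays, against -0.18 and -0.36 on the YPD arrays. It fell in MDN (-0.79 ± 0.10, limma adjusted p = 0.00247), missed the threshold in YPD (-0.27 ± 0.10, adjusted p = 0.0551), and its difference of -0.52 ± 0.14 had an adjusted p of 0.0449. ORC5 was the 1 gene of the set called lower in MDN than in YPD. The MDN calls of ORC2 and ORC5 were each lost without either MDN array.

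The remaining subunits moved less. ORC3 had 0.24 and -0.06 in MDN, against -0.30 and -0.40 in YPD, and fell in YPD (limma mean -0.35 ± 0.10, adjusted p = 0.0316). ORC6, the subunit outside the ring that contacts the MCM loading machinery, had -0.14 and -0.18 in MDN, against -0.25 and -0.56 in YPD, and fell in YPD (-0.40 ± 0.10, limma adjusted p = 0.0197). ORC4 stood alone in the complex by rising in YPD, with 0.37 and 0.44 there (0.41 ± 0.10, limma adjusted p = 0.0167) and 0.39 and 0.12 in MDN (0.26 ± 0.10, adjusted p = 0.0777). These 3 YPD calls were not stable: ORC3 and ORC4 were lost without either YPD array, and ORC6 without YPD array 2 or either MDN array.

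ORC1, the largest subunit and an ATPase, lacked a value on YPD array 1 and so was not tested. It had -0.12 and 0.06 in MDN, against -1.06 on YPD array 2. In the alternative fit that admits genes with at least 1 array per medium, its limma difference was 1.03 ± 0.16 (n = 2 against 1, adjusted p = 0.0287) and its YPD value had an adjusted p of 0.00566, which assumes that the lone array varied like the others.

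The MCM2 to MCM7 genes encode the 6 subunits of the helicase ring, and their responses were small. In MDN their means ran between -0.37 (MCM3) and 0.18 (MCM4), and in YPD between -0.71 (MCM6) and 0.06 (MCM4). In MDN 1 of the 6 fell (MCM3) and in YPD 3 fell (MCM2, MCM3 and MCM6), where 23.3% and 32.0% of all features were called lower. None of the 6 was called for the difference by limma at an adjusted p under 0.05 (1 was higher at an unadjusted p under 0.05). Over all features 29.5% were called for it. MCM3 had -0.40 and -0.34 in MDN, against -0.43 and -0.62 in YPD. Both media were low and lay close together, with means of -0.37 ± 0.09 in MDN (limma adjusted p = 0.0198) and -0.53 ± 0.09 in YPD (adjusted p = 0.00458).

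MCM6 had -0.40 and -0.15 in MDN, against -0.64 and -0.79 in YPD. It was the lowest of the 6 in YPD, at -0.71 ± 0.10 (limma adjusted p = 0.00243), and its difference of 0.44 ± 0.14 had an adjusted p of 0.0712. MCM2 had -0.06 and -0.18 in MDN, against -0.20 and -0.34 in YPD, where its mean of -0.27 ± 0.09 was just called (limma adjusted p = 0.0411). That call was lost without any 1 of the 4 arrays. MCM4 and MCM5 were not called in either medium: MCM4 had 0.23 and 0.14 in MDN, against 0.04 and 0.08 in YPD, and MCM5 had -0.01 and 0.15 in MDN, against -0.23 and 0.04 in YPD. MCM7 had -0.43 and -0.18 in MDN, against -0.25 and -0.09 in YPD, with an adjusted p of 0.0513 in MDN by limma. With median centring or equal array scale, MCM6 and MCM7 were called lower in MDN, and MCM7 also with a robust prior. CDC6, the ATPase that loads the ring, was not tested and had -0.25 and -0.17 in MDN, against -0.04 on YPD array 1.

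Among the factors that fire origins, the kinase's own subunits were called in different media, and they were not tested against each other. DBF4, the regulatory subunit whose protein is limiting for the kinase, had 0.11 and 0.31 in MDN, against -0.42 and -0.49 in YPD. The arrays had opposite signs in the media, and the difference was 0.67 ± 0.13 (limma adjusted p = 0.0211), with the fall in YPD called (-0.45 ± 0.09, adjusted p = 0.00839) and the MDN mean not (0.21 ± 0.09, adjusted p = 0.103). CDC7, the catalytic subunit, had 0.30 and 0.29 in MDN, against 0.03 and 0.20 in YPD. It rose in MDN (0.29 ± 0.09, limma adjusted p = 0.0368), and its difference was not called (0.18 ± 0.12, adjusted p = 0.309). CDC45, which joins MCM in the active helicase, had -0.07 and -0.38 in MDN, against -0.56 and -0.84 in YPD, and fell in YPD (-0.70 ± 0.12, limma adjusted p = 0.00514). The YPD calls of DBF4 and CDC45 were lost without either YPD array, and the MDN call of CDC7 without either MDN array or with median-centred arrays.

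The polymerase genes of the set gave few calls, where 54.1% of all features were called in MDN and 66.3% in YPD. DNA polymerase alpha-primase lays down the RNA-DNA primers, and 2 of its 4 genes were called somewhere. PRI2, the large primase subunit, had 0.26 and 0.50 in MDN, against -0.18 and -0.12 in YPD. It rose in MDN (0.38 ± 0.09, limma adjusted p = 0.0217), and its difference of 0.53 ± 0.13 had an adjusted p of 0.0383. POL12, the B subunit of the polymerase, had -0.58 and -1.0 in MDN, against -1.29 and -0.45 in YPD. Its arrays spread widely and the media overlapped, and it fell in both, at -0.79 ± 0.22 in MDN (limma adjusted p = 0.0334) and -0.87 ± 0.22 in YPD (adjusted p = 0.02). The MDN calls of PRI2 and POL12 were lost without any 1 of the 4 arrays, and the YPD call of POL12 without YPD array 1 or either MDN array.

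POL1, the catalytic subunit, and PRI1, the small primase subunit, were not called. POL1 had 0.12 and 0.29 in MDN, against 0.30 and -0.29 in YPD. PRI1 had 0.14 and 0.03 in MDN, against -0.18 and -0.03 in YPD.

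DNA polymerase delta copies the lagging strand, and its 2 tested genes moved in opposite directions in YPD. POL31, the essential second subunit, had -0.09 and 0.07 in MDN, against 0.79 and 0.25 in YPD, and rose in YPD (0.52 ± 0.15, limma adjusted p = 0.0276). POL32, the small subunit that tethers the enzyme to PCNA, had 0.04 and 0.08 in MDN, against -0.17 and -0.97 in YPD, and its YPD mean of -0.57 ± 0.20 lay at the threshold (limma adjusted p = 0.0499). The YPD arrays of both genes were far apart. The POL31 call was lost without YPD array 1 or either MDN array, and the POL32 call without YPD array 2, either MDN array, with ratios floored at 0.05 or in the fit with at least 1 array per medium. POL3, the catalytic subunit, was not tested and had 0.04 and 0.08 in MDN, against -0.42 on YPD array 1.

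DNA polymerase epsilon copies the leading strand. Neither of its tested genes in the set was called in either medium by limma at an adjusted p under 0.05, or at an unadjusted p under 0.05. DPB4, a subunit outside the set, was called lower in both media (means of -0.61 in MDN and -1.43 in YPD). POL2, the catalytic subunit, had 0.08 and 0.43 in MDN, against 0.07 and -0.06 in YPD. DPB2, its essential partner, had 0.12 and 0.18 in MDN, against -0.25 and -0.12 in YPD. The DPB2 arrays did not overlap between media, but the difference of 0.34 ± 0.12 was not called (limma adjusted p = 0.086). DPB3, a histone-fold subunit, was not tested and had 0.37 on MDN array 2, against 0.62 and 0.21 in YPD.

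The sliding clamp gave the largest difference between media in the set. POL30 (YBR088C) encodes PCNA, the ring that holds polymerases on DNA and recruits many repair and chromatin factors. It had -0.47 and -0.40 in MDN, against -1.69 and -1.51 in YPD. Both YPD arrays lay more than 1 log2 unit below both MDN arrays. The mean of -0.43 ± 0.09 in MDN (limma adjusted p = 0.0114) and that of -1.60 ± 0.09 in YPD (adjusted p = 0.000125) were both called, and the YPD mean corresponds to 0.329 of the untreated level. The difference was 1.17 ± 0.12 (adjusted p = 0.00567), a 2.25-fold higher ratio in MDN. The fall in YPD was called whichever array was left out, and the fall in MDN was lost without either MDN array.

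Of replication factor C, the five-part loader that opens the PCNA ring, RFC3, RFC4 and RFC5 fell in YPD, and RFC1 and RFC2 were not called. RFC5 had -0.25 and -0.20 in MDN, against -0.94 and -0.81 in YPD. RFC4 had -0.03 and -0.14 in MDN, against -0.76 and -0.58 in YPD. For both genes every YPD array lay below every MDN array: the YPD means were -0.88 ± 0.08 for RFC5 (limma adjusted p = 0.000654) and -0.67 ± 0.09 for RFC4 (adjusted p = 0.00218), and the differences were 0.65 ± 0.12 (adjusted p = 0.0184) and 0.59 ± 0.13 (adjusted p = 0.0273). RFC3 had 0.00 and -0.03 in MDN, against -0.25 and -0.36 in YPD, and fell in YPD (-0.30 ± 0.08, limma adjusted p = 0.0218), a call lost without YPD array 2 or either MDN array.

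RFC2 had 0.10 and 0.10 in MDN, against -0.30 and -0.15 in YPD, and missed the threshold in YPD (-0.23 ± 0.08, limma adjusted p = 0.06). RFC1, the large subunit that is particular to this loader, could not be read in YPD, where its arrays gave -1.12 and 0.69. In MDN it had -0.67 and -0.62, and its shared SE of 0.41 kept the MDN mean of -0.64 from being called (limma adjusted p = 0.238).

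RPA, the trimer that coats single-stranded DNA at forks and at damage, was the 1 complex of the set in which all genes rose in MDN. RFA3 (YJL173C), the smallest subunit, had 0.96 and 0.87 in MDN, against 0.04 and 0.15 in YPD. Its mean was 0.91 ± 0.08 in MDN (limma adjusted p = 0.00101) and 0.10 ± 0.08 in YPD (adjusted p = 0.34), and the difference was 0.82 ± 0.12 (adjusted p = 0.0107). RFA2 (YNL312W), the subunit phosphorylated during the cell cycle and after damage, had 0.34 and 0.42 in MDN, against -0.56 and -0.25 in YPD. The signs were opposite on every array, with a rise in MDN (0.38 ± 0.10, limma adjusted p = 0.0293), a fall in YPD (-0.40 ± 0.10, adjusted p = 0.0203) and a difference of 0.79 ± 0.15 (adjusted p = 0.02). RFA1 (YAR007C), the large DNA-binding subunit, had 0.56 and 0.60 in MDN, against 0.21 and 0.28 in YPD. It rose in both media, by 0.58 ± 0.08 in MDN (limma adjusted p = 0.00331) and 0.24 ± 0.08 in YPD (adjusted p = 0.0403), and the difference of 0.34 ± 0.11 was not called (adjusted p = 0.077). Without MDN array 1 none of the 3 was called in MDN by limma at an adjusted p under 0.05 (2 had an unadjusted p under 0.05), and without MDN array 2 only RFA3 was. The YPD call of RFA1 was lost without any 1 array and with a replicate block, median centring or equal array scale, and that of RFA2 without YPD array 1 or either MDN array.

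Of the enzymes that finish Okazaki fragments, CDC9 fell in both media and RAD27 in YPD. CDC9, the DNA ligase that seals nicks, had -0.54 and -0.36 in MDN, against -0.74 and -0.64 in YPD. The means were -0.45 ± 0.09 in MDN (limma adjusted p = 0.0108) and -0.69 ± 0.09 in YPD (adjusted p = 0.00185), and the difference was not called (0.24 ± 0.12, adjusted p = 0.196). RAD27, the flap endonuclease, had -0.06 and 0.25 in MDN, against -0.42 and -0.54 in YPD. It fell in YPD (-0.48 ± 0.11, limma adjusted p = 0.0129), and the difference was 0.57 ± 0.15 (adjusted p = 0.045). The CDC9 call in MDN was lost without either MDN array, and the RAD27 call in YPD without either YPD array. The fork proteins CTF4, which ties polymerase alpha to the helicase, and TOF1, which steadies stalled forks, were not tested. CTF4 had -0.36 and 0.19 in MDN, against -0.12 on YPD array 1, and TOF1 had -0.20 on MDN array 1, against -0.22 and -0.38 in YPD.

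Ribonucleotide reductase turns ribonucleotides into deoxynucleotides, with a large subunit made by RNR1 (or its damage-induced relative RNR3) and a small subunit made by RNR2 and RNR4. The small-subunit genes rose in both media and the main large-subunit gene fell in YPD. RNR4 (YGR180C) had 1.41 and 1.40 in MDN, against 0.42 and 0.42 in YPD. It was the highest gene of the set in MDN, at 1.40 ± 0.08 (limma adjusted p = 0.000225), a 2.65-fold rise, and rose by 0.42 ± 0.08 in YPD (adjusted p = 0.00603). The difference was 0.98 ± 0.11 (adjusted p = 0.00601), and both medium calls held whichever array was left out. RNR2 (YJL026W) had 1.07 and 0.76 in MDN, against 0.69 and 0.78 in YPD. Its media overlapped: it rose by 0.91 ± 0.11 in MDN (limma adjusted p = 0.0021) and 0.73 ± 0.11 in YPD (adjusted p = 0.00278), and the difference of 0.18 ± 0.15 was not called (adjusted p = 0.403). RNR2 was also above 0 on the arrays of MDN over YPD (0.45) and MDN over SCD (0.79). A dye effect on this gene cannot be told apart from a response. The MDN call of RNR2 was lost without MDN array 1 and its YPD call without either YPD array.

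RNR1 (YER070W) had -0.20 and -0.20 in MDN, against -1.0 and -1.0 in YPD. Both YPD arrays stood at 0.5 of the untreated level (-1.0 ± 0.08, limma adjusted p = 0.000337), and the call held whichever array was left out. In MDN the mean of -0.20 ± 0.08 was not called (limma adjusted p = 0.0761), and the difference was 0.80 ± 0.11 (adjusted p = 0.00929). With median-centred arrays RNR1 was called lower in MDN. RNR3 (YIL066C), which is raised strongly by DNA damage, had 0.49 and 0.42 in MDN, against 0.01 and -0.97 in YPD. Its YPD arrays spread by almost 1 log2 unit, and neither medium was called (0.45 ± 0.23 in MDN, limma adjusted p = 0.159, and -0.48 ± 0.23 in YPD, adjusted p = 0.126), nor was the difference of 0.93 ± 0.33 (adjusted p = 0.0907). The SE is shared by both media, so the YPD spread (SD 0.70) widened that of the MDN mean, whose arrays lay close together (SD 0.04). The missing MDN call therefore does not show that RNR3 was unchanged in MDN. CDC21 (YOR074C), thymidylate synthase, had -0.18 and 0.71 in MDN, against -0.07 and -0.42 in YPD, and was not called (difference 0.51 ± 0.32, limma adjusted p = 0.28). RNR1 and RNR3 are close relatives, as are RNR2 and RNR4, and how far their probes share signal was not tested.

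**Figure D3:**
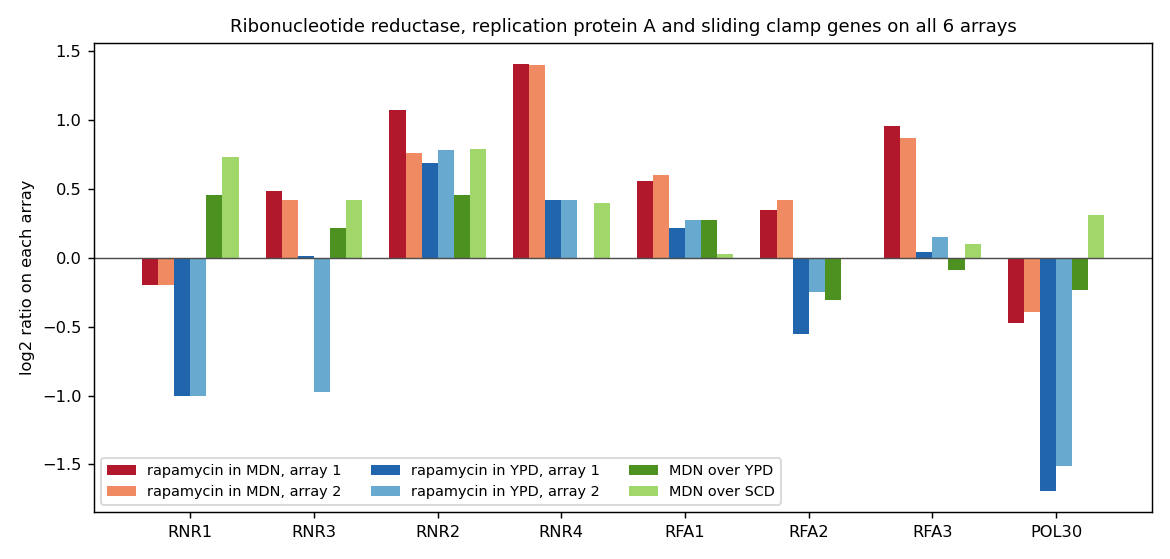
Log2 ratio on each of the 6 arrays (1 bar per array, from 0) for the ribonucleotide reductase genes, the RPA genes and POL30: rapamycin over untreated in MDN in red and orange, rapamycin over untreated in YPD in blue, and MDN over YPD and MDN over SCD in green. RNR4 and RFA3 are high in MDN (1.40 and 0.91 on average), and POL30 is the lowest in YPD (-1.60).

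The wider replication machinery outside the set, 23 genes for helicase activation, fork stability and nick or hybrid processing, had 20 genes tested. The counts of this list and of those that follow stand against array-wide shares called of 54.1% in MDN, 66.3% in YPD and 29.5% for the difference. In MDN 5 rose and 3 fell, in YPD 4 rose and 8 fell, and for the difference 6 were higher in MDN and 1 was lower. The list's medians were 0.11 in MDN, -0.26 in YPD and 0.26 for the difference. The called genes furthest from 0 in MDN were CSM3 (0.73), a partner of Tof1, DPB4 (-0.61), a histone-fold subunit of polymerase epsilon, DNA2 (-0.60), a flap-processing nuclease, and PSF3 (0.49), a subunit of the GINS complex. In YPD the called genes furthest from 0 were DPB4 (-1.43), RNH202 (-0.77), a subunit of RNase H2, CTF18 (-0.70), part of another clamp loader, and TOP1 (-0.62), topoisomerase I. RNH202 (0.89), TOP1 (0.87), DPB4 (0.82) and RNH201 (0.71) were higher in MDN, and the GINS gene PSF2 (-0.64) was the 1 gene lower in MDN. Without MDN array 1 and without MDN array 2, 1 and 0 of the 20 were called higher in MDN and 0 and 0 lower by limma at an adjusted p under 0.05 (3 higher and 1 lower in each case at an unadjusted p under 0.05), and 1 was called lower in MDN without either YPD array. In YPD the genes called higher were 1 with any 1 array left out, and those called lower 4 without either YPD array.

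The other genes of deoxynucleotide supply numbered 9, with 8 tested. In MDN 1 rose and 2 fell, in YPD 1 rose and 5 fell, and for the difference 3 were higher in MDN; the medians were -0.05 in MDN, -0.46 in YPD and 0.12 for the difference. WTM1, which anchors the small subunit of the reductase in the nucleus, rose in both media (1.04 in MDN and 1.12 in YPD). SML1, the protein inhibitor of Rnr1, fell in both (-0.33 in MDN and -0.25 in YPD), as did DCD1, deoxycytidylate deaminase (-1.29 in MDN and -1.46 in YPD). DUT1, dUTP pyrophosphatase, fell in YPD (-1.16), as did DFR1 (-0.70), dihydrofolate reductase, which serves thymidylate synthesis. DFR1 (0.86), DUT1 (0.82) and DIF1 (0.67), which carries the small subunit into the nucleus, were the 3 genes higher in MDN. Without MDN array 1, 0 of the 8 were called in MDN by limma at an adjusted p under 0.05 (3 had an unadjusted p under 0.05), without MDN array 2 the count was 1 higher and 1 lower, and without YPD array 2 the genes called lower in YPD were 3.

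The replication checkpoint, which controls ribonucleotide reductase through Mec1, Rad53 and Dun1, had 10 of 12 genes tested. In MDN 2 rose and 3 fell, in YPD 2 rose and 4 fell, and for the difference 2 were higher and 1 lower in MDN; the medians were 0.12 in MDN, -0.05 in YPD and -0.03 for the difference. MEC1, the sensor kinase, rose in YPD (1.27) and had 0.18 in MDN, where it was not called, with a difference of -1.10 that was. DUN1, the kinase that relieves the inhibition of the reductase, rose in both media (0.50 in MDN and 0.81 in YPD). RAD53, the effector kinase, fell in YPD (-0.46) and was higher in MDN by 0.67, and LCD1, the partner of Mec1, rose in MDN (0.54) and was higher there by 0.70. RAD9, a checkpoint adaptor (-0.79 in MDN and -0.68 in YPD), and RAD17, a subunit of the checkpoint clamp (-0.51 in MDN and -0.94 in YPD), fell in both. RFX1 also fell in both (-0.35 in MDN and -0.33 in YPD). Without either MDN array, 0 of the 10 were called in MDN by limma at an adjusted p under 0.05 (3 and 4 had an unadjusted p under 0.05), and the genes called lower in YPD were 0 without YPD array 1, 1 without YPD array 2 and 2 without either MDN array. With YPD array 1 left out, 3 were lower at an unadjusted p under 0.05.

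Some cell cycle genes were also called, not all in the direction of the set, and their part in its responses was not tested. Their counts stand against the same array-wide shares called, 54.1% in MDN, 66.3% in YPD and 29.5% for the difference. Of 11 regulators of Start and S phase, 3 rose and 3 fell in MDN, 0 rose and 8 fell in YPD (limma adjusted p under 0.05; 0 were higher at an unadjusted p under 0.05), and 4 were called higher in MDN for the difference, with medians of 0.02 in MDN, -0.38 in YPD and 0.51 for the difference. CLB5, the S-phase cyclin, rose in MDN (0.38) and fell in YPD (-1.17), with a difference of 1.55. CLB6, its partner cyclin, had -0.12 in MDN and fell in YPD (-1.38), with a difference of 1.26. CLN3, the cyclin that starts the programme, fell in both (-0.73 in MDN and -0.90 in YPD). Without either MDN array 0 of the 11 were called in MDN (0 and 1 had an unadjusted p under 0.05), and 4 to 6 were called lower in YPD without any 1 of the 4 arrays.

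The 8 core histone genes, whose transcripts mark S phase, were called higher in MDN for the difference in 8 of 8 cases. In MDN 6 rose and 0 fell, with 0.27 to 0.76 for the gene means, against -1.26 to -0.20 in YPD, where 7 fell and 0 rose; the medians were 0.55 in MDN, -0.86 in YPD and 1.25 for the difference. The largest difference was that of HHF1, histone H4, at 1.95. Duplicate histone genes encode near-identical transcripts, so their probes are not independent. Without either MDN array 0 of the 8 were called in MDN (4 and 7 were higher at an unadjusted p under 0.05), and 6 or 7 were called lower in YPD without any 1 array.

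Of the 6 cohesion genes, which hold sister chromatids together from S phase on, 0 were called in MDN by limma at an adjusted p under 0.05 (1 was higher at an unadjusted p under 0.05) and 3 fell in YPD, with medians of 0.22 in MDN, -0.27 in YPD and 0.44 for the difference. MCD1, the cleavable cohesin subunit, had 0.24 in MDN and fell in YPD (-0.77), with a called difference of 1.01, and PDS5 (0.88) and SMC1 (0.45) were also higher in MDN. The YPD count of genes called lower was 0 or 1 without any 1 of the 4 arrays (1 or 2 at an unadjusted p under 0.05).

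Markers of G2 and M phase had 5 of 7 genes tested, with 1 lower in MDN, 4 lower in YPD and 3 higher in MDN for the difference, and medians of -0.09 in MDN, -0.76 in YPD and 0.53 for the difference. Markers of the passage of M to G1 had 6 of 8 tested, with 3 higher in MDN, 1 higher and 1 lower in YPD and 1 higher in MDN for the difference, and medians of 0.30 in MDN, -0.01 in YPD and 0.30 for the difference. In YPD the S-phase markers (-0.86), the other deoxynucleotide genes (-0.46) and the Start and S-phase regulators (-0.38) had lower medians than the replication genes (-0.27). Cohesion (-0.27) and the wider replication machinery (-0.26) lay close to that value, and the checkpoint list (-0.05) lay higher. Of the marker lists given here, that of G2 and M phase was lower and that of M to G1 higher. No test compared these medians. Without either MDN array 0 of these 11 markers were called in MDN (2 in each case had an unadjusted p under 0.05), and the YPD calls of the second list were 1 higher and 0 lower without YPD array 1 (1 lower at an unadjusted p) and 0 without YPD array 2 (1 higher at an unadjusted p). With an array left out no feature of the whole table was called for the difference, so no list could keep such a call. The differences themselves lay between 1.78 and 2.13 for HHF1 and between 1.47 and 1.63 for CLB5 in those fits.

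**Figure D4:**
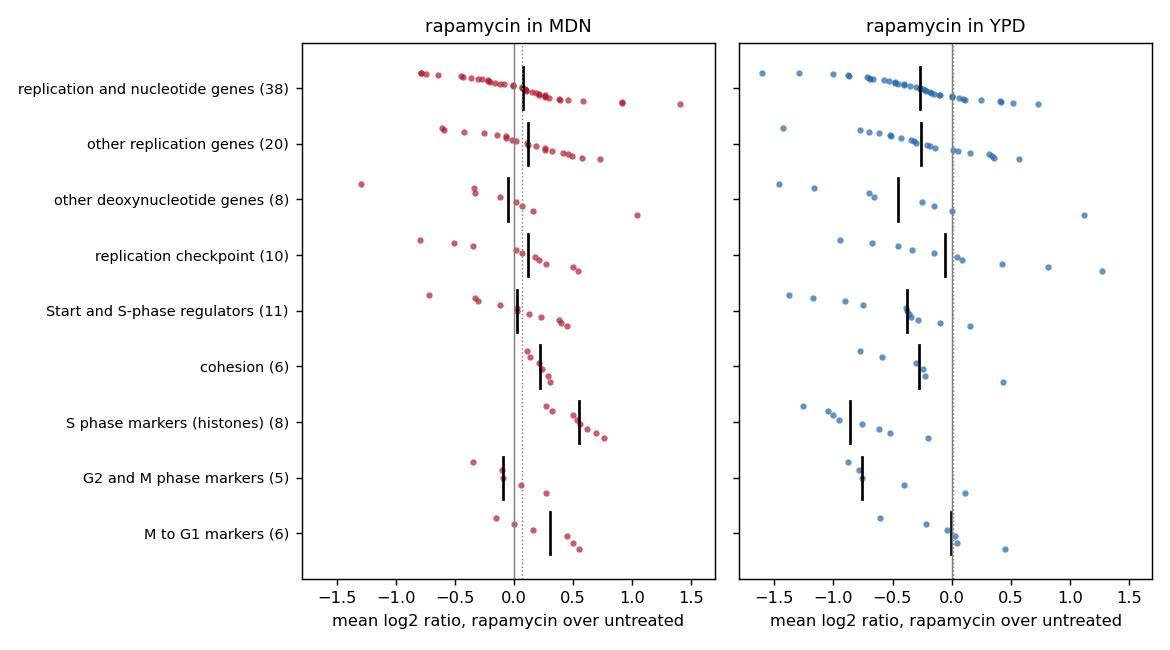
Mean log2 response to rapamycin of each gene in the replication set and in each companion list, in MDN (left) and YPD (right), with a dot per gene, a black bar at the list median and a dotted line at the median of all features; the numbers are the genes tested. The histone median is 0.55 in MDN and -0.86 in YPD, and that of the replication set 0.08 in MDN and -0.27 in YPD.

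Without rapamycin, the replication genes differed little between the media. These arrays have no replicate and no test. On the array of MDN over YPD, 0 of 44 genes had an absolute log2 ratio of at least 1, a size reached by 5.89% of all features, and the values ran between -0.45 (RFC4) and 0.57 (PRI2), with a median of 0.01 against -0.06 over all features. On the array of MDN over SCD, 0 of the 43 genes with a value reached it, against 3.37% of all features, and the values ran between -0.51 (ORC1) and 0.79 (RNR2), with a median of -0.01 against -0.09. At a smaller size of 0.58, which is a 1.5-fold change, 0 of 44 genes passed over YPD (19.3% of all features) and 2 of 43 over SCD, RNR1 and RNR2 (10.1%).

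RNR1 and RNR2 were the highest of the set over SCD. RNR1 was at 0.45 over YPD and 0.73 over SCD, and RNR2 at 0.45 over YPD and 0.79 over SCD. RNR3 was at 0.21 over YPD and 0.42 over SCD, and RNR4 at 0.00 over YPD and 0.40 over SCD. CDC21 went the other way over SCD, with 0.15 over YPD and -0.43 over SCD. Among other genes with large rapamycin responses, POL30 was at -0.23 over YPD and 0.31 over SCD, RFA3 at -0.09 over YPD and 0.10 over SCD, and ORC2 at -0.20 over YPD and -0.01 over SCD. The 8 histone genes, by comparison, lay between 0.42 and 0.91 over YPD and between 0.14 and 0.95 over SCD. Both arrays had MDN cells in the Cy5 channel, so they are not independent of each other.

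The other genes varied around 0 by role. The MCM genes lay between -0.27 (MCM6) and 0.30 (MCM7) over YPD, and between 0.01 (MCM5) and 0.42 (MCM7) over SCD. The clamp and loader genes lay between -0.45 (RFC4) and 0.16 (RFC3) over YPD, and between -0.29 (RFC2 and RFC3) and 0.31 (POL30) over SCD. The 3 firing factors were at 0.07 (CDC45), -0.43 (CDC7) and -0.03 (DBF4) over YPD. Over SCD they were at -0.34 (CDC45), -0.17 (CDC7) and -0.14 (DBF4). The polymerase alpha-primase genes lay between -0.20 (PRI1) and 0.57 (PRI2) over YPD, and between -0.12 (POL1) and 0.08 over SCD.

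**Figure D5:**
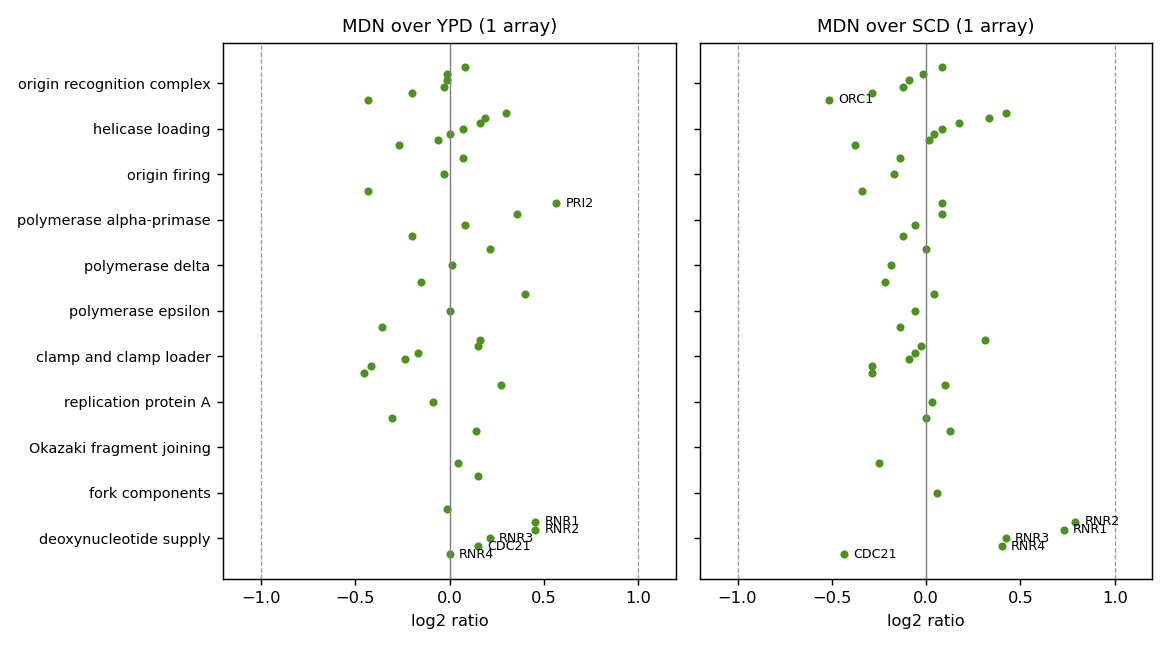
Log2 ratio of MDN over YPD and of MDN over SCD for each gene of the replication set on its single array, with a dot per gene by role and dashed lines at 1 and -1. No gene reaches a dashed line, and RNR1 and RNR2 are the highest over SCD (0.73 and 0.79).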

How the data were processed

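Per the labels, poly(A) RNA of strain S288c was labelled with Cy3 (YPD, SCD or untreated cells) and Cy5 (MDN or rapamycin-treated cells). The authors deposited a table of 6210 probes on 6 arrays. From the values, it holds log2 ratios: raised to the power of 2, 100% of the values deposited are multiples of 0.01 (tolerance 0.0001). The sources used here name no scanner, background correction or normalization, and the direction was read from the dyes. A single symbol was given for 5595 probes in the platform annotation and 615 were unnamed; genes with several probes (34) were averaged. All 44 replication genes matched RefSeq by gene number. Of 84 companion genes, HUG1 had no probe matched here and 1 other is not reported.

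The 4 rapamycin arrays were fitted in R 4.3.3 by lmFit and eBayes of limma 3.58.1, with a mean per medium and two-sided tests, over the 5488 features with a value on all 4 arrays, with 2 residual and 3.00 prior degrees of freedom. Precision is limited by the number of arrays: the SE had a median of 0.096 for medium means and 0.136 for their difference. The scripts were tested on simulated data. The labels do not say whether same-numbered arrays pair. Deviations of same-numbered arrays correlated at -0.10 over 5488 features. With a single difference per medium this cannot settle pairing, so a replicate block was an alternative. Other alternatives were median centring, equal array scale, at least 1 array per medium, separate probes, a robust prior, a rule of at least 2-fold, 0.58 in place of 1 on the medium arrays, and each array left out. A floor of 0.05 on ratios and a crossed block were chosen after the data had been seen. Members and lists were chosen with earlier results of these data known. All 44 genes are accounted for; those called and the lowest and highest of each role are named, with up to 4 genes per companion list by size of the mean, called genes first. Some further genes were named after their values were seen, to describe a list. A planned look at promoter and protein sequences was not run here. Figures used matplotlib 3.10.9 in Python 3.11.15.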

Additional observations from a re-analysis of the deposited data

Results flagged for a closer look

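For 12 genes the responses to rapamycin in the 2 media differed by the limma test of the difference, MDN minus YPD, with a Benjamini-Hochberg adjusted p under 0.05. POL30 differed by 1.17, RNR4 by 0.98, RFA3 by 0.82, RNR1 by 0.80 and RFA2 by 0.79 on the log2 scale. Smaller differences were those of DBF4 (0.67), RFC5 (0.65), RFC4 (0.59), RAD27 (0.57), ORC2 (0.54) and PRI2 (0.53), and ORC5 was the 1 gene lower in MDN (-0.52). In all 12 genes both MDN arrays lay on the same side of both YPD arrays. The genes were picked by this difference on the same arrays, so the lack of overlap adds no support. Over all features, both MDN arrays lay above both YPD arrays for 36.4% and below them for 32.6%. The array-wide share called for this difference was 29.5%.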

How the results depend on the processing

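Each medium had 2 arrays, which limits the precision. With each array left out in turn, genes called higher in MDN ranged over 1 to 7 and lower over 0 to 6 (median -0.0073 to 0.077), genes called higher in YPD over 2 to 3 and lower over 10 to 12 (median -0.35 to -0.25), and genes called for the difference over 0 to 0 in either direction (median 0.31 to 0.37). Median centring gave 10 genes lower in MDN, with MCM6, MCM7, RFC5 and RNR1 added. It also gave a median of 0.075 over SCD and turned the uncalled YPD means of POL1 (-0.0010) and POL2 (-0.0014). Equal array scale added MDN calls of MCM6, MCM7 and RFC5 and turned the uncalled difference of POL12 (-0.14). It ended the difference calls of ORC2 and RAD27 and added that of RFA1. It also ended the YPD calls of MCM2 and RFA1. A robust prior added the MDN call of MCM7. Leaving out 1 array also turned uncalled values, which are given as ranges: in MDN CDC21 (-0.18 to 0.71), MCM5 (-0.015 to 0.15), ORC3 (-0.059 to 0.24), POL31 (-0.089 to 0.070) and RAD27 (-0.059 to 0.25), in YPD MCM5 (-0.23 to 0.043), POL1 (-0.29 to 0.30), POL2 (-0.059 to 0.070), RFC1 (-1.12 to 0.69) and RNR3 (-0.97 to 0.014), and for the difference POL1 (-0.093 to 0.49), POL12 (-0.33 to 0.50) and RFC1 (-1.33 to 0.48). With a replicate block the difference was called higher in MDN for 7 genes and lower for 0; the block also ended the MDN calls of CDC7 and POL12 and the YPD calls of MCM2 and RFA1. The lower count was also 0 with at least 1 array per medium and with a crossed block. The fit with at least 1 array per medium ended the difference calls of ORC5 and RAD27. The crossed block ended those of ORC5 and PRI2, the MDN call of CDC7 and the YPD calls of MCM2 and RFA1. The crossed block and a floor on ratios were added after seeing the data. A call of at least 2-fold left 1 gene higher and 0 lower in MDN, 0 higher and 3 lower in YPD, and 1 higher and 0 lower for the difference. Over SCD, 2 genes passed 0.58. Where calls changed, the cause was not tested beyond fewer arrays or a stricter rule.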
